A study of Homo sapiens with 16 samples.

Results

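The integrated stress response and amino acid genes described here are 40 genes that carry or execute the ATF4 program, from its transcription factors to the enzymes, transporters and secreted proteins it controls. They were followed as H3K27ac, the acetylation of lysine 27 on histone H3 that marks active promoters and enhancers, in THP-1 cells, an acute myeloid leukemia line of monocytic origin. Members were chosen by gene name: every 1000 bp window in the deposited table that was assigned to a member and lay at most 10000 bp from its transcription start site (TSS) was taken. This gave 136 of 151654 windows, at 39 of the 40 genes. CBS had no window, the single window of FGF21 was too low to test, 1 window each of ASNS and PSAT1 was also too low, and 133 windows at 38 genes were tested. The list was proposed because matches to the motif of CHOP, the protein of DDIT3, were frequent in regions with more H3K27ac in untreated USP18-/- cells, so the comparison of the untreated genotypes is given below as a description with no test.

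H3K27ac was compared between 4 groups of 2 libraries. The study calls the 2 libraries of a group biological replicates, but nothing in the sources ties them to separate clones. The p-values therefore measure only the spread between these libraries. WT cells are given as Cas9 only in one label and as carrying a control guide RNA in another. USP18-/- cells carried guides against USP18, the isopeptidase that removes ISG15 from proteins and restrains signaling from the type I interferon receptor, and were grown from sorted single cells. Each genotype was left untreated or received IFNα at 1000 U/ml for 6 h, called IFN here. Levels are given as CPM, the tag count of a window relative to the library's total after TMM scaling, and all windows have the same width. The member window farthest out, TRIB3 +9812 (bp from the nearest TSS, minus being upstream), held 1.75 CPM in untreated WT and 3.44 CPM in untreated USP18-/- cells. The nearest window left out, XBP1 -10347, held 53.4 and 70.3 CPM. A window is said to have changed when edgeR's quasi-likelihood test gave an adjusted p under 0.05 over all 123276 windows tested, and it counts as called when the change was also over 2-fold. A bulk profile cannot tell a mark carried by more cells from more of the mark in each cell.

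The integrated stress response is a translational and transcriptional program of all human cells. Kinases that sense unfolded protein in the endoplasmic reticulum, uncharged tRNA, heme shortage or double-stranded RNA phosphorylate the initiation factor eIF2, which lowers general translation while the mRNA of ATF4 is translated better. ATF4, usually paired with a C/EBP family protein such as CHOP, binds the C/EBP-ATF response element (CARE) and turns on amino acid synthesis, amino acid import and tRNA charging, together with its own brakes. The RNA-sensing kinase PKR, encoded by EIF2AK2, is itself a classical interferon-stimulated gene.

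The deposited libraries held between 9046141 and 12935453.5 tags in the windows, with TMM factors from 0.879 to 1.09. Windows near the TSSs of the interferon-stimulated genes USP18, ISG15, IFIT1, MX1 and OAS1 were all higher with IFN in WT cells, and 4 of these 5 were higher with IFN in USP18-/- cells, the MX1 window being the exception at 1.45 CPM against 5.94 CPM in IFN-treated WT cells. H3K27ac near the TSS of USP18 does not check the knockout. All 9 monocytic marker genes had a tested window, SPI1 among them at 67.0 to 130 CPM across groups. With IFN, 3 of the 9 were higher and 2 lower in USP18-/- than in WT cells, among them MPO, the granule peroxidase of immature myeloid cells, at 4.33 against 53.4 CPM. Of 13 genes of lymphoid, erythroid, epithelial and stromal cells, 8 had a tested window and none was called between the genotypes with IFN, while CD3D, GATA1, KLF1 and EPCAM had no window. Their summed level was 24.1 CPM in both WT libraries and 26.7 to 31.8 CPM in the USP18-/- libraries with IFN. The part of these differences in the results below was not tested.

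The C/EBP-ATF response element has a short core, which was found in 19 of 38 member promoter windows. The stretches of 30 bases below come from the hg38 genome at member promoters, are written 5′ to 3′ on the strand that reads TGATGNAA, and show the match in capitals. They are shown because this core of the CARE is the sequence feature by which the list was proposed. They are a selection, and matches at other members, among them ALDH18A1 and JDP2, are not shown.
TRIB3, chr20:380881-380910, with identical copies at chr20:380914-380943 and chr20:380947-380976: cccggtccgggTGATGCAAaccggagctaa
ATF3, chr1:212608547-212608576: gggggcactggTGATGCAAgttcggggagg
CHAC1, chr15:40953251-40953280: cctggcaggagTGATGCAAcggcaggggag
SLC1A5, chr19:46784893-46784922: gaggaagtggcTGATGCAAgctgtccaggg
HERPUD1, chr16:56931955-56931984: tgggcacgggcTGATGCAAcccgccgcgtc
ASNS, chr7:97872458-97872487: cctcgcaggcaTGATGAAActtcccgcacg
SESN2, chr1:28259211-28259240: ttagggttgcgTGATGAAAagggacttcac
DDIT3, chr12:57520802-57520831: gggggcggggaTGATGCAAtgtttggcaac
The endoplasmic reticulum stress element, CCAAT and CCACG with 9 bases of any kind between them, lies in capitals in these 2 stretches from the promoters of the unfolded protein response genes of the list.
XBP1, chr22:28800598-28800626: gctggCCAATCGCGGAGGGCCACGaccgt
HSPA5, chr9:125241386-125241414: cttcaCCAATCGGCGGCCTCCACGacggg

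IFN-treated USP18-/- cells were compared with IFN-treated WT cells. These libraries differ from the untreated ones that led to the list but come from the same lines, so this comparison is not independent of that choice. H3K27ac was over 2-fold higher at 53 of 133 member windows, in 25 genes, against 11.3% of all windows, and lower at 6 windows, in 5 genes, against 13.5%. Without the fold threshold 86 member windows were higher and 7 lower, where all windows gave 21.3% and 19.4%. The median log2 difference was 0.79 over the member windows and 0.00 over all windows. The member windows are not independent of each other, since 79 of the 133 overlapped or touched another window in a chain, and the 133 windows fell into 86 chains.

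Promoters as a class were higher in the knockout, so the window nearest the TSS of each gene (the promoter window) was also compared with the same window of all genes. Of 38 member promoter windows, 31 were higher and 1 was lower by adjusted p, against 36.8% and 11.5% of 18795 promoter windows. Over 2-fold, 18 were higher and 1 lower, against 12.5% and 5.87%. The median log2 difference was 0.96 for member promoters and 0.31 for all promoters, and among promoters with a mean of at least 10 CPM it was 1.02 (32 members) and 0.51 (8061 genes). When only windows within 3000 bp of a TSS were fitted and scaled, 24 of 88 member windows were called higher and 2 lower, with 6.3% and 11.1% of all such windows, in place of the 43 and 1 that the full fit gave for the same 88. Scaling by the sum of counts moved the split from 53 higher and 6 lower to 38 and 10. The shares of all windows under that scaling were not counted, so this split has no background beside it. With offsets that follow signal strength, 39 of the 133 were called higher and 6 lower, beside 11.1% and 12.4% of all windows.

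**Figure D1:**
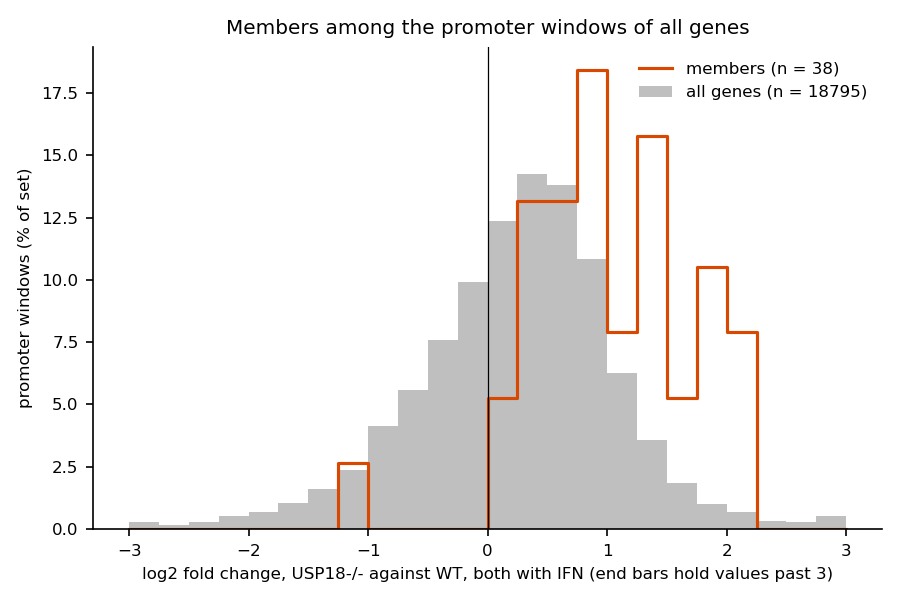
Log2 fold change between IFN-treated USP18-/- and WT cells (x axis) against the percent of promoter windows in each step of the axis (y axis), for 18795 genes (grey bars) and 38 members (orange line). The members lie within the range of the grey bars with a higher median, 0.96 against 0.31, and 1 member, ALDH18A1, lies below zero.

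The counts of called windows by role, here and in the next paragraphs, stand beside 11.3% of all windows called higher and 13.5% called lower. The regulators come first. TRIB3, the pseudokinase that binds ATF4 and CHOP and dampens them, had the highest mean level of the 38 member promoters. Its promoter window at -292 (chr20:380503-381503) held 63.7 and 68.6 CPM in untreated WT, 73.7 and 59.5 CPM in IFN-treated WT, 193 and 217 CPM in untreated USP18-/- and 266 and 263 CPM in IFN-treated USP18-/- cells. The 4 knockout libraries lay far above the 4 WT libraries, without overlap. With IFN the difference was 3.97-fold (log2 1.99 ± 0.08, SE; edgeR adjusted p = 3.34e-34). Of the 6 TRIB3 windows, 5 were among the 10 member windows with the smallest adjusted p in this comparison. The window at +703, in the first intron, differed by 5.43-fold (adjusted p = 5.74e-34). A cluster upstream differed by 4.03-fold at -7678, 3.62-fold at -8666 and 4.05-fold at -6969. The file calls these 3 windows intergenic, while the GENCODE annotation places them inside the longest TRIB3 transcript.

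ATF4 itself, the central activator, moved less. Its promoter window at -34 held 66.2 and 69.2 CPM in untreated WT, 68.6 and 58.3 CPM in IFN-treated WT, 96.1 and 105 CPM in untreated USP18-/- and 113 and 109 CPM in IFN-treated USP18-/- cells. The genotypes did not overlap, and with IFN the difference was 1.75-fold (log2 0.81 ± 0.09, SE; adjusted p = 1.41e-12), under the fold threshold. The overlapping window at -831 was just over it and was called, at 26.1 against 53.5 CPM with IFN. That was 2.05-fold (log2 1.04 ± 0.12, SE; adjusted p = 4.54e-12). DDIT3, which encodes CHOP, showed less still, at 57.8 and 51.8 CPM in IFN-treated WT and 76.2 and 79.5 CPM in IFN-treated USP18-/- cells. That was 1.42-fold (log2 0.51 ± 0.10, SE; adjusted p = 5.98e-06). Its untreated libraries nearly met, at 60.6 and 57.3 CPM in WT and 60.7 and 71.9 CPM in USP18-/- cells. Other windows within 5 Mb of the DDIT3 promoter had a median log2 difference of -0.48 between the genotypes with IFN, whose part in the DDIT3 value was not tested.

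ATF3, a bZIP factor induced by ATF4, has several start sites. The window at -7, at a start inside the longest transcripts, held 5.86 and 5.87 CPM in IFN-treated WT and 16.5 and 13.5 CPM in IFN-treated USP18-/- cells, which was 2.56-fold (log2 1.35 ± 0.19, SE; adjusted p = 5.71e-09). In the fit restricted to windows near a TSS the same value was 1.00 on the log2 scale and fell just short of the fold threshold. PPP1R15A, which encodes GADD34 and directs the phosphatase that restores eIF2, was at 24.96 CPM in WT and 69.99 CPM in USP18-/- cells with IFN, and NUPR1, a stress-induced chromatin protein, was at 7.13 and 16.4 CPM. JDP2, a bZIP repressor, did not pass at its promoter, at 9.70 and 11.7 CPM. In all, 17 of the 33 windows of the 7 regulators were called higher with IFN and none lower.

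**Figure D2:**
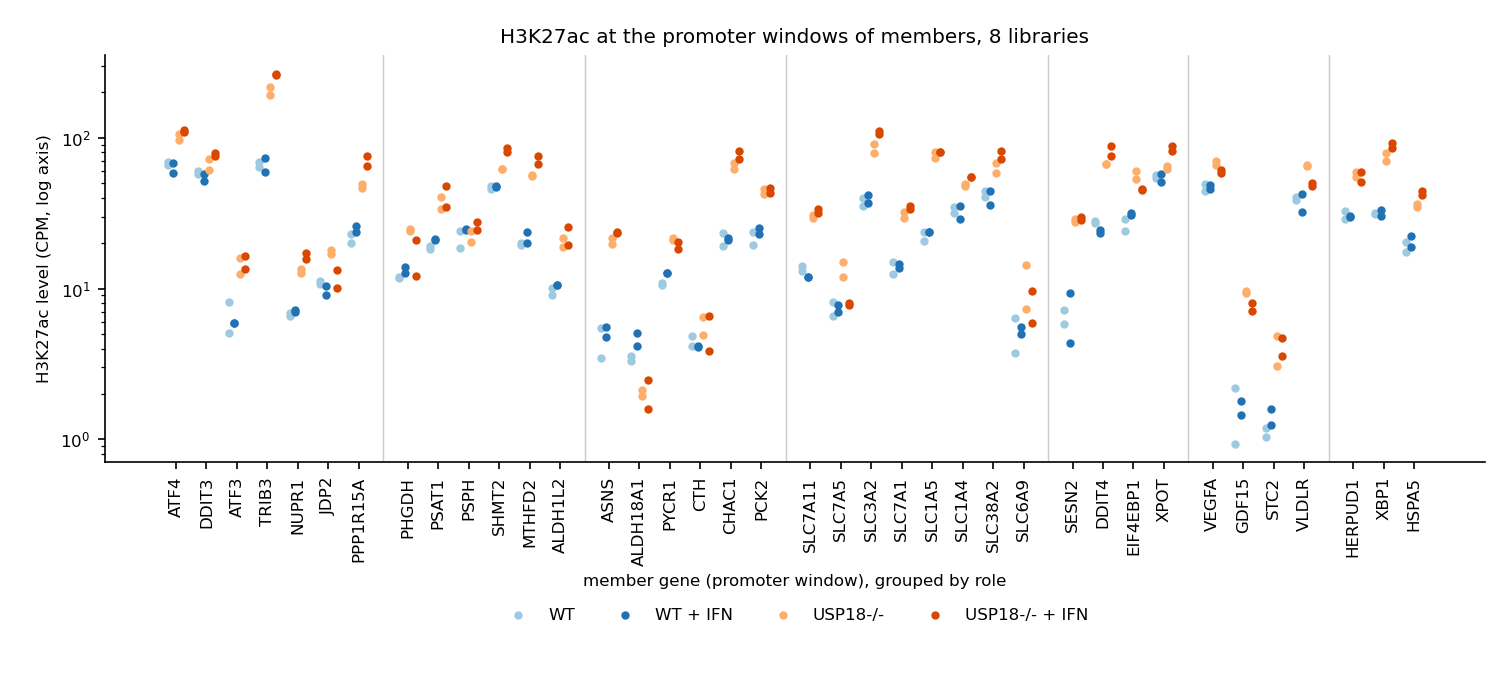
H3K27ac level in CPM (log axis) at the promoter window of each of 38 members, grouped by role, with 2 points for each of the 4 groups. The orange USP18-/- points lie above the blue WT points for most genes, TRIB3 reaching 266 CPM, and below them for ALDH18A1.

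Of the 6 serine and one-carbon enzymes, which turn a glycolytic intermediate into serine, glycine and folate-bound carbon, 5 of 18 windows were called higher and 1 lower in USP18-/- cells with IFN. MTHFD2, a mitochondrial folate enzyme, led them. In its first intron, at +629, the WT libraries held 27.2 and 25.3 CPM untreated and 25.8 and 27.6 CPM with IFN, and the USP18-/- libraries 73.3 and 71.8 CPM untreated and 104 and 88.7 CPM with IFN. The genotypes were far apart, by 3.60-fold with IFN (log2 1.85 ± 0.10, SE; adjusted p = 3.63e-27). ALDH1L2 was called at its promoter, at 10.5 against 22.7 CPM, and PSAT1 rose by a log2 of 0.98, at 21.1 against 41.5 CPM. The SHMT2 promoter rose by a log2 of 0.79, at 47.6 against 82.6 CPM. PSPH, the last enzyme of serine synthesis, did not pass, at 24.7 against 26.2 CPM. PHGDH, its first enzyme, did not pass at the promoter, where the USP18-/- libraries with IFN were far apart at 12.1 and 20.8 CPM, and was called in its first intron at +988, at 26.5 against 59.6 CPM.

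Of 9 windows of the other amino acid enzymes, 2 were called higher and 2 lower, beside 11.3% and 13.5% of all windows. ASNS, asparagine synthetase and a classical ATF4 target, held 5.50 and 3.46 CPM in untreated WT, 4.77 and 5.56 CPM in IFN-treated WT, 19.8 and 21.8 CPM in untreated USP18-/- and 23.3 and 23.7 CPM in IFN-treated USP18-/- cells. All knockout libraries were above all WT libraries, and the difference with IFN was 4.55-fold (log2 2.18 ± 0.18, SE; adjusted p = 1.66e-18). CHAC1, which breaks down glutathione, held 21.7 and 21.1 CPM in WT and 81.7 and 72.7 CPM in USP18-/- cells with IFN. This was 3.61-fold (log2 1.85 ± 0.11, SE; adjusted p = 1.51e-25). PCK2 and PYCR1 were higher by less than 2-fold, at 24.2 against 44.8 CPM and 12.7 against 19.3 CPM. CTH, which makes cysteine, did not pass, at 4.15 against 5.22 CPM. ALDH18A1, the first enzyme of proline synthesis, went the other way at a low level, with 4.17 and 5.04 CPM in WT and 2.49 and 1.60 CPM in USP18-/- cells with IFN (log2 -1.16 ± 0.30, SE).

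All 8 amino acid transporters had tested windows, and 15 of their 39 windows were called higher and 2 lower. At the promoters, SLC1A5, which imports glutamine, went from 23.8 and 23.6 CPM in WT to 80.3 and 80.9 CPM in USP18-/- cells with IFN, and SLC7A11, the cystine transporter, from 11.9 and 11.9 CPM to 33.9 and 31.7 CPM. SLC3A2, the heavy chain that SLC7A11 and SLC7A5 need at the cell surface, went from 41.9 and 37.1 CPM to 112 and 106 CPM, and the arginine transporter SLC7A1 from 14.6 and 13.6 CPM to 35.4 and 33.6 CPM. These 4 were called, with log2 differences from 1.29 to 1.76. SLC1A4 and SLC38A2 rose by 0.78 and 0.94 on the log2 scale, and SLC38A2 was called higher at another window. SLC7A5, the leucine transporter, and SLC6A9, the glycine transporter, did not pass at the promoter, at 7.38 against 7.95 CPM and 5.26 against 7.73 CPM, while SLC6A9 was called at +1017, in an intron, at 10.4 against 26.2 CPM.

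Of 9 windows of the mTORC1 and translation genes, 4 were called higher and none lower. SESN2 and DDIT4, inhibitors of the growth kinase complex mTORC1, were both called at the promoter. The SESN2 promoter held 9.34 and 4.32 CPM in WT and 28.5 and 29.7 CPM in USP18-/- cells with IFN, which was 4.23-fold (log2 2.08 ± 0.17, SE; adjusted p = 2.74e-18) although the WT libraries were spread. At DDIT4, the window at -875 held 23.7 and 21.6 CPM in WT and 111 and 106 CPM in USP18-/- cells with IFN, which was 4.79-fold (log2 2.26 ± 0.10, SE; adjusted p = 4.01e-32). EIF4EBP1, the translation repressor that mTORC1 inactivates, and XPOT, the tRNA exporter, rose by less than 2-fold at the promoter, by 0.54 and 0.64 on the log2 scale. EIF4EBP1 was called higher away from its promoter window.

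Of 16 windows of secreted and surface proteins, 5 were called higher and none lower, and GDF15 and STC2 started low. GDF15, a stress hormone, held 1.79 and 1.44 CPM in WT and 7.12 and 8.08 CPM in USP18-/- cells with IFN at +282, which was 4.67-fold (log2 2.22 ± 0.28, SE; adjusted p = 1.82e-10). The first intron of STC2, a secreted glycoprotein, held 1.19 and 1.34 CPM in WT and 11.5 and 8.64 CPM in USP18-/- cells with IFN at +2642, which was 7.91-fold (log2 2.98 ± 0.28, SE; adjusted p = 1.71e-15). The angiogenic factor VEGFA and the lipoprotein receptor VLDLR rose by 0.34 and 0.38 on the log2 scale at their promoters. Another window of VEGFA was called higher. All 3 genes of endoplasmic reticulum stress were higher at the promoter, and 5 of their 9 windows were called higher and 1 lower. XBP1, whose spliced product drives chaperone genes, held 39.7 and 38.9 CPM in WT and 125 and 127 CPM in USP18-/- cells with IFN at +391, which was 3.19-fold (log2 1.67 ± 0.09, SE; adjusted p = 3.90e-27), and at +1123 the difference was 3.84-fold (adjusted p = 1.76e-25). The chaperone HSPA5 was called at its promoter, at 20.7 against 43.2 CPM. HERPUD1, of the degradation machinery, rose by 0.88 on the log2 scale at its promoter and was called higher at another window.

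The 6 windows called lower with IFN were mostly weak and away from the TSS. They were the ALDH18A1 promoter, ALDH18A1 -5951, HERPUD1 +9253, SHMT2 -4522, SLC1A4 -9749 and SLC3A2 +5324. ALDH18A1 -5951 lies at the end of the neighbouring gene TCTN3 and SHMT2 -4522 in an exon of NXPH4, so both were assigned to the member by distance alone. SLC3A2 +5324 was the strongest of these, at 17.6 and 17.3 CPM in WT and 6.58 and 8.08 CPM in USP18-/- cells.

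The level of neighbouring windows was read beside these values, since a stretch of chromosome can differ between lines as a whole. The median log2 difference of other windows within 5 Mb of a member ranged from -0.85 (SLC38A2) to 0.69 (PSPH) and was 0.05 in the middle. Of the 53 windows called higher, 46 stayed over 2-fold after the local median was subtracted.

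Without IFN the same direction was seen, described here with no test because this contrast led to the list. H3K27ac was over 2-fold higher in USP18-/- cells at 45 of 133 member windows, beside 7.91% of all windows, and over 2-fold lower at 4, beside 13.3%. At promoters, 20 of 38 members were over 2-fold higher, beside 8.48% of all genes. Over all 8 libraries, 31 of 38 member promoters had every USP18-/- library above every WT library, beside 33.1% of all promoters. The members with the highest fitted fold were STC2 +2642 (0.933 and 1.09 CPM in WT, 6.30 and 6.58 CPM in USP18-/- cells), GDF15 +282 (0.933 and 2.18 CPM, 9.63 and 9.28 CPM), the ASNS and SESN2 promoters and TRIB3 -6969. SESN2 held 5.81 and 7.19 CPM in WT and 27.7 and 28.7 CPM in USP18-/- cells, and TRIB3 -6969 held 20.9 and 20.3 CPM and 81.2 and 86.5 CPM. In each of these 5 windows the genotypes were wide apart. Among windows with a mean of at least 1 CPM, and with 1 window a gene, the lowest were weak, ALDH18A1 -5951 (3.84 and 2.91 CPM in WT, 1.23 and 0.580 CPM in USP18-/- cells), PSPH +5582 (1.97 and 1.55 CPM, 0.350 and 0.774 CPM), SLC1A4 -9377 (1.87 and 2.46 CPM, 0.963 and 0.774 CPM), HERPUD1 +9253 (5.18 and 4.00 CPM, 3.24 and 1.93 CPM) and SHMT2 -4522 (1.66 and 2.00 CPM, 1.14 and 0.967 CPM). The first 3 of these were over 2-fold lower, as was JDP2 -8741, whose mean was under 1 CPM (1.24 and 1.18 CPM, 0.350 and 0.774 CPM).

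In WT cells IFN changed no member window. By edgeR's quasi-likelihood test 0 of 133 windows passed in either direction, and 0 by DESeq2. Among all windows 0.647% passed upward and 0.148% downward, and 0.343% and 0.0389% were also over 2-fold. At an unadjusted p under 0.05 there were 8 member windows (6.02%), where all windows gave 8.93%. The log2 changes at the 38 promoters ran from -0.20 to 0.42 with a median SE of 0.13. The TRIB3 promoter showed a log2 change of 0.01 ± 0.09 (SE) and the ATF4 promoter -0.09 ± 0.09 (SE).

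In USP18-/- cells no member promoter window changed over 2-fold with IFN, and the member windows that did lay elsewhere. The share of all promoters over 2-fold was not counted for this comparison, so that result has no background beside it. Promoters of all genes were also less spread, with log2 quartiles of -0.29 and 0.33 against -0.43 and 0.41 for all windows. By adjusted p, 36 of 133 member windows rose with IFN, in 15 genes, beside 12.9% of all windows, and 10 fell, in 8 genes, beside 11.2%. Over 2-fold, 6 rose and 1 fell, where all windows gave 7.12% and 4.41%, which made 4.51% and 0.752% of the member windows. Of 38 promoters, 9 rose and 5 fell by adjusted p, beside 15.2% and 9.52% of all promoters. The 9 were TRIB3, PPP1R15A, SHMT2, MTHFD2, SLC3A2, SLC38A2, DDIT4, XPOT and XBP1, with log2 changes from 0.26 to 0.55, and the 5 were JDP2, PHGDH, SLC7A5, EIF4EBP1 and VLDLR, from -0.76 to -0.32. This comparison shares the IFN-treated USP18-/- libraries with the comparison of the genotypes above. At PHGDH those libraries were far apart, at 12.1 and 20.8 CPM, beside 24.2 and 24.9 CPM in untreated USP18-/- cells.

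The 7 windows called here sat at 4 genes. MTHFD2 +7740, in its second intron (chr2:74205803-74206803), held 8.30 and 12.0 CPM in untreated WT, 11.3 and 10.9 CPM in IFN-treated WT, 9.71 and 10.8 CPM in untreated USP18-/- and 31.0 and 28.8 CPM in IFN-treated USP18-/- cells. It stood apart in the last group alone, a 2.91-fold rise (log2 1.54 ± 0.15, SE; adjusted p = 1.13e-14), unlike the MTHFD2 start and first intron, which were high in knockout cells without IFN as well. NUPR1 -3988, over a long noncoding RNA upstream of the gene, had a similar pattern with 4.29 and 4.26 CPM untreated and 14.9 and 17.3 CPM with IFN in USP18-/- cells, a 3.76-fold rise (log2 1.91 ± 0.19, SE; adjusted p = 8.61e-14). Its WT libraries held 4.36 and 4.00 CPM untreated and 6.16 and 6.07 CPM with IFN. The overlapping window at -3643 rose 2.78-fold.

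At ATF3 the windows near its most upstream start changed. In USP18-/- cells the intronic window at +1538 went from 1.75 and 2.90 CPM to 9.88 and 9.77 CPM with IFN, a 4.25-fold rise (log2 2.09 ± 0.25, SE; adjusted p = 7.16e-11), and its neighbour at +1958 rose 4.08-fold. The window at -6292, upstream of that start and over long noncoding RNAs, went from 18.4 and 17.7 CPM to 37.9 and 34.3 CPM, which was 2.00-fold (log2 1.00 ± 0.13, SE; adjusted p = 8.36e-10) and therefore at the threshold itself. In WT cells this window held 8.61 and 8.65 CPM untreated and 8.74 and 7.21 CPM with IFN. The start at -7 showed a log2 change of 0.07 ± 0.16 (SE) with IFN in USP18-/- cells. SLC3A2 +5324, in the first intron, was the 1 window that fell over 2-fold, from 17.5 and 18.4 CPM to 6.58 and 8.08 CPM (log2 -1.29 ± 0.17, SE; adjusted p = 6.37e-10), and the window at -38, at the upstream SLC3A2 start and over SNHG1, fell by 0.80, while the SLC3A2 promoter at -12 rose by 0.36 on the log2 scale.

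**Figure D3:**
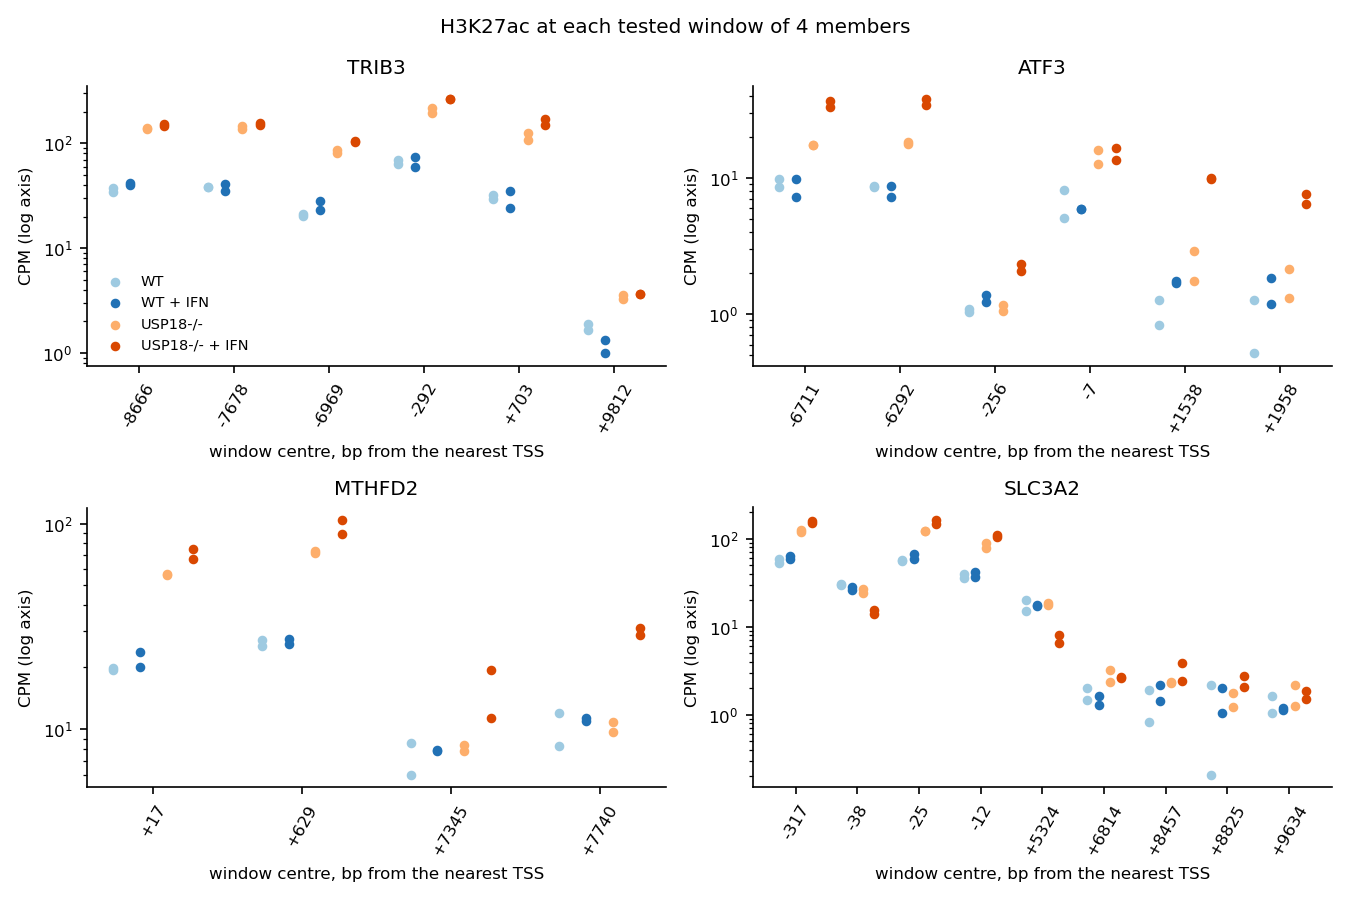
H3K27ac level in CPM (log axis) at every tested window of TRIB3, ATF3, MTHFD2 and SLC3A2, in order of the distance from the nearest TSS in bp, with 2 points for each of the 4 groups. TRIB3 windows are high in both knockout groups, while MTHFD2 +7740 and ATF3 +1538 stand apart in IFN-treated USP18-/- cells at 28.8 to 31.0 CPM and 9.77 to 9.88 CPM, and at SLC3A2 +5324 the IFN-treated USP18-/- points are the lowest.

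Whether IFN acted differently in the 2 genotypes was tested as an interaction. By adjusted p the log2 change with IFN was higher in USP18-/- than in WT cells at 14 member windows and lower at 7, beside 6.73% and 5.22% of all windows. By over 2-fold it was higher at 4 and lower at 1, beside 4.61% and 2.55%, and the members' shares were 3.01% and 0.752%. The 4 were MTHFD2 +7740 (log2 1.42 ± 0.23, SE; adjusted p = 1.32e-06), ATF3 -6292 (1.11 ± 0.22), ATF3 -6711 (1.10 ± 0.22) and NUPR1 -3988 (1.36 ± 0.31), and the 1 was SLC3A2 +5324 (-1.27 ± 0.22). Both ATF3 windows, which overlap, dropped below 2-fold without IFN-treated WT replicate 2 (0.98 and 0.90) and without IFN-treated USP18-/- replicate 1 (0.99 and 0.98). At promoters the log2 change with IFN was higher in USP18-/- cells for TRIB3, SHMT2, DDIT4 and XPOT, by 0.36 to 0.49. It was lower for PHGDH, SLC7A5 and EIF4EBP1, with differences of -0.74, -0.78 and -0.55, and these 3 promoters fell with IFN in USP18-/- cells (log2 -0.58, -0.76 and -0.32) where WT cells had 0.16, 0.02 and 0.23. The PHGDH value rests on IFN-treated USP18-/- libraries that were far apart, at 12.1 and 20.8 CPM. Shares of all promoters were not counted for the interaction, so the promoters named here have no background beside them.

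**Figure D4:**
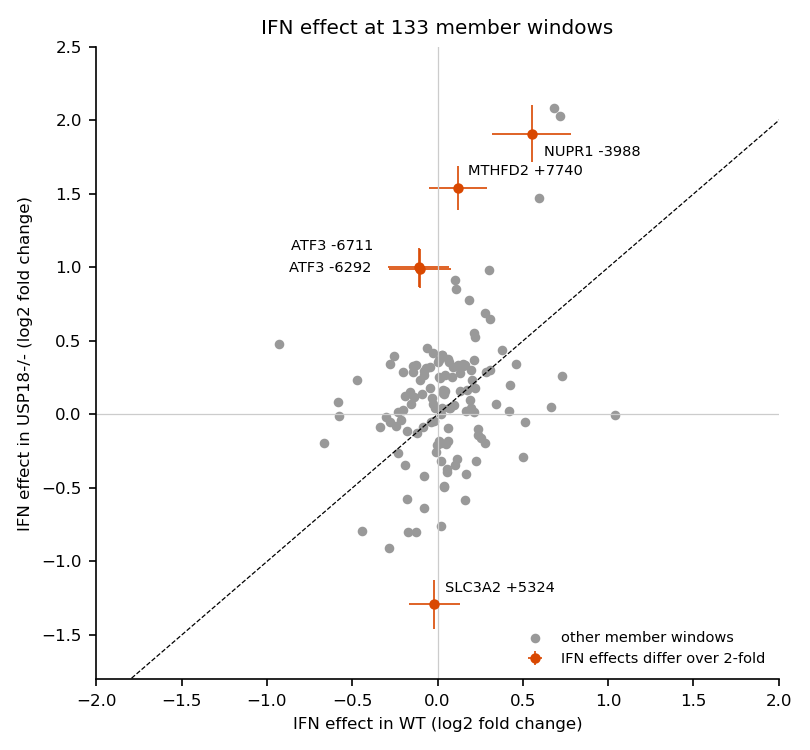
Log2 fold change with IFN in WT cells (x axis) against that in USP18-/- cells (y axis) for 133 member windows, where the dashed line marks equal effects. The 5 orange windows, with SE bars in both directions, differ over 2-fold between the genotypes, 4 above the line and SLC3A2 +5324 below it.

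The CARE core TGATGNAA, read on both strands, was more common in the members than elsewhere, which is not independent of how the list was proposed. It was found in 52 of 133 member windows (39.1%) and in 17.1% of all tested windows, and in the central 200 bp in 11 of 38 member promoters (28.9%) and 2.37% of all promoters. The 11 were ATF3, TRIB3, NUPR1, JDP2, ASNS, PYCR1, CHAC1, SLC7A11, SLC1A5, VEGFA and HERPUD1. Their median log2 difference between USP18-/- and WT cells with IFN was 1.35, and 0.89 for the other 27. Over the whole window there was no such gap, with medians of 0.98 for the 19 promoters that held a match and 0.94 for the 19 that did not, and 9 called higher in each set. Over all promoters the medians with and without a central match were 0.32 and 0.31, while 20% and 12.3% were called higher. In RefSeq promoters of 300 bases on GRCh38.p14, 32 members were matched by symbol and 10 of them held the core in at least 1 promoter. Of 35116 single promoters, 3.62% held it. Some members have several promoters and were counted as genes, so these shares differ in unit and cannot be compared directly. VEGFA, SHMT2, SLC7A11, PSPH, ALDH1L2, PYCR1, EIF4EBP1 and NUPR1 were not matched. The interferon-type core TTTCNNTTT, again on both strands, lay in the central 200 bp of 1 of 38 member promoters, SLC7A11, and in 6.09% of all promoters, while over the whole window it lay in 11 of 38 (28.9%) and in 30.9%. It lay in 37.6% of the 133 member windows and in 46.3% of all tested windows. Of the windows called with IFN in USP18-/- cells, MTHFD2 +7740, NUPR1 -3988 and -3643, and ATF3 +1538 and +1958 held it. ATF3 -6292 and SLC3A2 +5324 did not. Over the whole window, the endoplasmic reticulum stress element lay in 2 member promoters, those of XBP1 and HSPA5, and in 0.133% of all. The promoter windows of MTHFD2, DDIT4 and GDF15 held no match to the CARE core, while the neighbouring windows MTHFD2 +629 and DDIT4 -875 held 1 and 4 matches, 1 of them central in each. A match is a string of letters and shows no binding.

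The rest of the pathway was read at the promoter window of 5 further lists, beside the 36.8% of all promoters that were higher, the 11.5% that were lower and the 12.5% that were over 2-fold higher in USP18-/- cells with IFN. Of 17 cytosolic tRNA synthetases tested, which load amino acids onto tRNA and include many ATF4 targets, 13 were higher and 1 lower in USP18-/- than in WT cells with IFN, 7 of them over 2-fold. WARS1, for tryptophan and also an interferon-stimulated gene, held 26.2 and 29.1 CPM in WT and 130 and 118 CPM in USP18-/- cells with IFN, and was already at 69.6 and 69.2 CPM without it. By adjusted p, AARS1 (1.32 ± 0.10, log2 and SE) and IARS1 (1.52 ± 0.13) came next. Of 12 other bZIP factors, 9 were higher and none lower, 6 over 2-fold, among them BATF2 (3.15 ± 0.16), CREBRF (2.18 ± 0.17) and ATF5 (1.30 ± 0.09). Of these, BATF2 and CREBRF were also called with IFN in USP18-/- cells.

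Of 16 chaperones and sensors of the endoplasmic reticulum, 13 were higher and 1 lower with IFN, 5 over 2-fold, of which the smallest adjusted p values were those of the ubiquitin ligase SYVN1 (1.24 ± 0.10), EDEM1 (1.01 ± 0.10) and the translocon channel SEC61A1 (1.34 ± 0.14). Of 7 mitochondrial stress genes, 5 were higher and 3 of these over 2-fold, YME1L1, HSPA9 and LONP1. The eIF2 kinases and factors had 12 of 15 higher and none lower, with EIF2S2 (1.16 ± 0.10) and the endoplasmic reticulum kinase EIF2AK3 (1.15 ± 0.17) over 2-fold, a share of 2 in 15 that is near that of all promoters. EIF2AK2, the kinase PKR, was the 1 gene of these 5 lists that passed with IFN in WT cells, from 11.8 and 10.0 CPM to 31.2 and 31.7 CPM, and in USP18-/- cells it went from 8.05 and 8.90 CPM to 63.4 and 55.4 CPM. Its IFN effect was larger in USP18-/- cells by 1.28 ± 0.20 (log2 and SE; adjusted p = 5.21e-07). The median log2 difference between the genotypes with IFN was 0.83 for the synthetases, 1.06 for the bZIP factors, 0.71 for the endoplasmic reticulum list, 0.67 for the eIF2 list and 0.49 for the mitochondrial list, beside 0.31 for all promoters and 0.96 for the member promoters.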

How the data were processed

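H3K27ac ChIP-seq was read from 1 deposited table. Per the labels and the study's methods, the authors aligned reads to hg38 with Bowtie2 and used HOMER to count tags in 1000 bp windows on merged ATAC-seq peaks. The deposited values are expected counts (tags not normalized, in steps of 0.5) and were rounded to whole numbers here. The 8 input libraries were not analysed here. Members, gene lists and tests were chosen with earlier results of these data known.

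Windows with at least 10 counts in at least 2 libraries were kept (123276 of 151654). All 8 libraries were fitted together with edgeR 4.0.16 (TMM, quasi-likelihood test), and p-values were adjusted by Benjamini-Hochberg over all windows tested. Libraries of a group varied by a biological coefficient of 0.0747. The code was tested on simulated data. Levels are CPM. DESeq2 1.42.0 and other scalings, filters, window sets and left-out libraries were alternatives. Named were the promoter windows of ATF4, DDIT3, ATF3 and TRIB3, up to 10 called windows a comparison by adjusted p, the 5 highest and 5 lowest untreated differences at a mean of at least 1 CPM, and up to 3 called genes of each further list. Other members were described by role. Distances are HOMER's, to the nearest TSS, and motifs were searched in hg38. Bounds on precision cover 2 libraries a group only.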

Additional observations from a re-analysis of the deposited data

Results flagged for a closer look

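IFN effects at 5 member windows differed over 2-fold between the genotypes by the interaction term of the edgeR fit. The difference, USP18-/- minus WT on the log2 scale, was 1.42 at MTHFD2 +7740, 1.36 at NUPR1 -3988, 1.11 at ATF3 -6292, 1.10 at ATF3 -6711 and -1.27 at SLC3A2 +5324. The 2 ATF3 windows overlap and are 1 region. With 2 libraries a group, no library could be tested for standing apart from the others of its group.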

How the results depend on the processing

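Counts of member windows over 2-fold are given as higher and lower. For scaling by the sum, chains of windows and the local median, shares of all windows were not counted. IFN in WT cells gave 0 and 0 in every alternative run, unadjusted p under 0.05 being reached by 8 windows. IFN in USP18-/- cells (6 and 1) gave 2 lower with scaling by the sum of counts, 2 and 0 among windows within 3000 bp of a TSS, 2 higher with 1 window per chain, 2 and 0 when only windows within 3000 bp were fitted, and 36 and 10 with no fold threshold. USP18-/- against WT with IFN (53 and 6) gave 10 lower with scaling by the sum, 1 lower within 3000 bp, 30 higher with 1 window per chain, 24 and 2 in the fit near TSSs, and 86 higher with no fold threshold. With the local median subtracted it gave 50 and 6. The difference of the IFN effects (4 and 1) gave 2 higher with scaling by the sum, 0 and 0 within 3000 bp and in the fit near TSSs, 1 higher with 1 window per chain, and 14 and 7 with no fold threshold. Untreated, the genotypes (45 and 4) gave 0 lower within 3000 bp and 20 and 1 in the fit near TSSs. The near-TSS and chain settings hold fewer windows, and the cause of the other changes was not tested. The fit near TSSs and the local median were chosen after seeing the data.

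Leaving out 1 library at a time, IFN in USP18-/- cells gave 5 to 7 higher and 1 to 2 lower, the second value without either IFN-treated USP18-/- library. USP18-/- against WT with IFN gave 50 to 54 higher and 3 to 7 lower, the 3 without IFN-treated USP18-/- replicate 2. The difference gave 2 to 5 higher and 1 to 2 lower, the 2 higher without IFN-treated WT replicate 2. Untreated counts ran from 45 to 51 and 4 to 5. ATF3 -6292 fell below 2-fold for IFN in USP18-/- cells in 9 alternatives, at log2 values from 0.87 to 1.00. Libraries with the same number did not deviate together (correlations from 0.00106 to 0.0458), and a replicate block gave 6 and 1, 53 and 6, 4 and 1, and 45 and 4. Counted in the central 200 bp alone, 22.6% of member windows held the CARE core and 6.77% the interferon-type core. The difference of IFN effects could not be fitted on 2 groups alone. Among the 38 promoters, the median SE of the log2 change with IFN in WT cells was 0.13 with 2 libraries a group.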
